A study of Mus musculus with 18 samples.

Results

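The 10 genes *Slc6a19*, *Slc6a20a*, *Slc7a7*, *Slc7a8*, *Slc7a9*, *Slc3a1*, *Slc3a2*, *Slc15a1*, *Slc1a1* and *Slc36a1* encode the transporters by which the small intestine takes up amino acids and small peptides. They were named as a functional group, with earlier results of these data known, and were read from mouse ileum RNA-seq as 10 of 55487 genes in the files. All 10 are protein-coding and passed the filter on low values (more than 3 CPM, counts scaled to the library total, in at least 4 libraries), so that they were tested among 12645 genes. None of the 10 passed an adjusted p of 0.05 by edgeR in any of the 3 comparisons between genotypes. Few genes did so at all: 0.403% of those tested for homozygous against Control and 0.293% for heterozygous against Control mice. For homozygous against heterozygous mice it was 0.0%. No call would thus be usual for any 10 genes. Every 95% interval of a log2 fold change of the 10 genes lay between -0.64 and 0.58.

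Dietary protein reaches the enterocyte as free amino acids and as di- and tripeptides. Sodium- or proton-coupled carriers and exchangers of the brush border bring them into the cell, and a second set of carriers passes amino acids across the basolateral membrane to the blood. Several of these carriers are heteromers, in which a light chain that transports is joined to a heavy chain that takes it to the membrane. PPARα, encoded by *Ppara*, is a fatty acid-activated nuclear receptor that induces genes of fatty acid oxidation and lipid handling in this tissue.

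Whole-thickness ileum was taken from littermate C57BL6/J mice on chow, aged 8 to 13 weeks when treated, with 1 library per mouse. All groups came from the line with the CAG-*Ppara*,-*EGFP* transgene at the *Col1a1* locus, and all mice received tamoxifen (100 mg/kg) on 3 consecutive days and were studied 2 weeks after the last dose. The 6 heterozygous and 6 homozygous IEC-*Ppara* mice also carried *Villin-CreERT2*, which restricts the inversion that switches the transgene on to the intestinal epithelium, whereas the 6 Control mice lacked it. The comparison of IEC-*Ppara* with Control mice therefore asks how *Ppara* overexpression in the epithelium alters the ileum, and an effect of the Cre recombinase alone cannot be told apart from it. The Control group held 3 females and 3 males, and each IEC-*Ppara* group 2 females and 4 males. In bulk tissue, fewer cells of a type and less RNA per cell cannot be told apart.

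The library totals ranged from 38528522 to 50376371 counts, and each of the 10 genes had at least 1658 counts in every library. *Ppara* averaged 38.1 ± 8.40 CPM in Control, 141 ± 35.4 in heterozygous and 216 ± 35.5 in homozygous mice (SD, n = 6), and neither IEC-*Ppara* group overlapped with Control. Of 31 tested PPARα target genes, 11 rose in homozygous and 8 in heterozygous mice by edgeR at an adjusted p under 0.05 and none fell (17 and 15 without Control mouse 1, and 13 in the latter comparison without heterozygous mouse 1). Among them was *Fabp1*, the liver-type fatty acid binding protein, with log2 fold changes of 3.88 (SE 0.23) and 3.40 (SE 0.22). The epithelial markers *Epcam* (2208 to 2823 CPM) and *Vil1* (2088 to 3247 CPM) and the ileal bile acid transporter *Slc10a2* (355 to 680 CPM) were high in all libraries, and the duodenal factor *Gata4* stayed at 0.30 to 2.52 CPM. The libraries also differed in other cells of the gut wall: 10 smooth muscle markers summed to 682 to 6140 CPM in Control, 852 to 4510 in heterozygous and 4157 to 9690 in homozygous mice, and 12 B cell markers to 20.5 to 623, 17.7 to 353 and 14.9 to 102 CPM. None of these markers was at 0 in all 18 libraries.

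The levels of the 10 genes in Control ileum spanned a wide range when expressed per gene length (FPKM, which scale counts to both gene length and library total). *Slc6a19* was highest at 119 ± 31.2 FPKM (SD, n = 6). *Slc7a9* (93.9 ± 13.4), *Slc3a1* (93.5 ± 27.3) and *Slc15a1* (83.7 ± 16.1) followed. Neighbours among these 4 overlapped in their ranges, although *Slc6a19* exceeded *Slc7a9* within each of the 6 libraries. Next came *Slc3a2* (58.6 ± 5.75), *Slc7a7* (52.4 ± 8.90) and *Slc6a20a* (45.9 ± 5.62), all below the range of *Slc15a1* and overlapping with their neighbours. *Slc7a8* (21.4 ± 1.80), *Slc1a1* (14.3 ± 0.454) and *Slc36a1* (8.50 ± 1.08) were lowest, each without overlap with the gene above it. Genes on the opposite strand overlap 26.5% of the exons of *Slc3a1* and 31.9% of those of *Slc1a1*. For *Slc6a20a* an antisense gene overlaps 13.8%, and for *Slc7a7* the overlap is 7.0%. Reads there may be missing from the counts, so the places of these genes in the order are less certain. The brush border carriers of neutral amino acids, of cystine and dibasic amino acids and of peptides thus stood at the top of the order, and the carriers of acidic and small amino acids at its end.

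**Figure D1:**
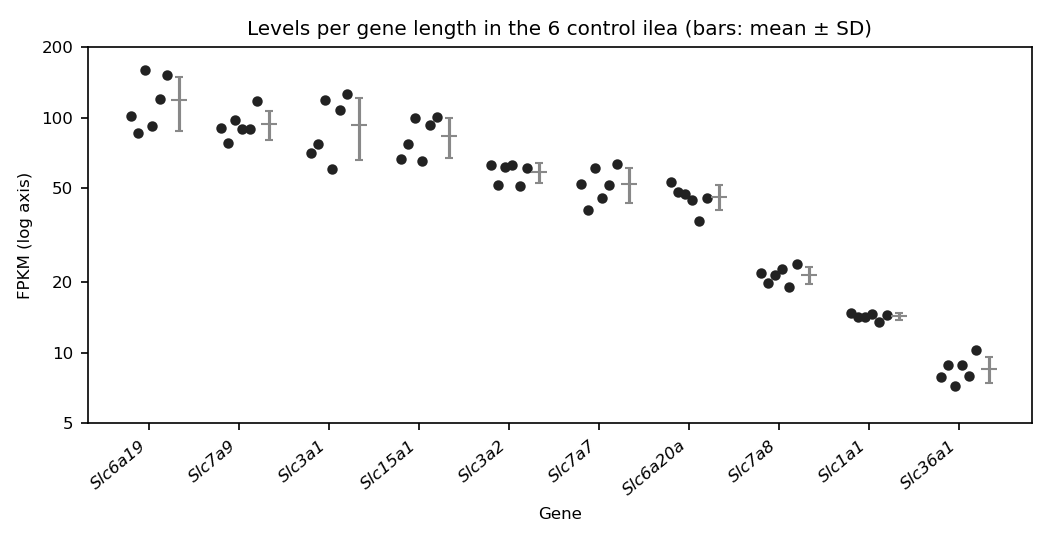
Level of each of the 10 transporter genes in the 6 Control ilea, in FPKM on a log axis, with 1 point per mouse and the mean ± SD beside the points. The order runs from *Slc6a19* (119 FPKM) to *Slc36a1* (8.50 FPKM).

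*Slc6a20a* (chr9:123634770-123678885, minus strand, GRCm38) encodes SIT1, the sodium- and chloride-coupled carrier of proline and other imino acids in the brush border. In the fit without covariates it showed the largest difference among the 10 genes. It measured 148 to 218 CPM in Control mice (median 190.0), 170 to 271 in heterozygous mice (median 194) and 141 to 175 in homozygous mice (median 163). All 6 homozygous mice lay below the median of Control and below the median of heterozygous mice, and 3 of them lay below every heterozygous mouse, but the groups overlapped. The log2 fold change of homozygous against heterozygous mice was -0.39 (SE 0.12, 95% interval -0.64 to -0.14), with an unadjusted p of 0.0039 and an adjusted p of 0.498 by edgeR. Against Control it was -0.23 in homozygous (SE 0.12, interval -0.48 to 0.02, adjusted p = 0.653 by edgeR) and 0.16 in heterozygous mice (SE 0.12, interval -0.09 to 0.41, adjusted p = 1.00). Within females the means were 195 CPM in Control (3 mice), 194 in heterozygous (2) and 148 in homozygous mice (2), and within males 180.0 (3), 211 (4) and 166 (4), so that the homozygous mean was lowest in both sexes.

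Smooth muscle markers, higher in homozygous than in heterozygous mice for 10 of 10 genes (median log2 fold change 0.74, 0 passing an adjusted p of 0.05 and 1 an unadjusted p of 0.05 by edgeR), moved with this difference, and so did other lists. Fibroblast markers were higher for 10 of 10 (2 at an unadjusted p of 0.05) and myeloid markers for 11 of 12. Epithelial markers were lower for 11 of 12, enterocyte markers for 10 of 15, B cell markers for 12 of 12 and T cell markers for 6 of 7. Ileal genes were lower for 8 of 10 (4 at an unadjusted p of 0.05) and duodenal genes for 4 of 6 (2 at an unadjusted p of 0.05). Crypt genes were lower for 6 of 10 (2 at an unadjusted p of 0.05, 1 of them higher). In all these lists 0 passed an adjusted p of 0.05 by edgeR, and 7.63% of all tested genes reached an unadjusted p of 0.05. Beyond the smooth muscle and B cell covariates, their part in the difference was not tested. With the smooth muscle score as a covariate, the *Slc6a20a* value for homozygous against heterozygous mice was -0.23 (unadjusted p 0.0409, adjusted p 1.00 by edgeR), and against Control it was -0.10. *Slc6a19* (0.30) and *Slc3a1* (0.28) in homozygous against Control mice were larger under this covariate. With the B cell score as a covariate the *Slc6a20a* value for homozygous against heterozygous mice was -0.39. Without the 4 libraries of highest B cell score it was -0.45 (adjusted p = 0.533 by edgeR). *Slc6a20b*, the neighbouring paralog, had a similar pattern at a lower level. It measured 11.5 to 15.5 CPM in Control, 10.4 to 18.1 in heterozygous and 8.41 to 13.6 in homozygous mice. Its log2 fold change was -0.52 (SE 0.13, unadjusted p 0.000942, adjusted p 0.479 by edgeR) in homozygous against heterozygous and -0.37 (SE 0.13, adjusted p 0.453) in homozygous against Control mice. Of 4177 stretches of 100 bases in *Slc6a20a* transcripts, 18.5% also occur in another gene and 400 of them in *Slc6a20b*, and how reads there were assigned was not tested. The same holds for 13.8% of the exons of *Slc6a20a*, which an antisense gene at a mean of 1.69 CPM overlaps.

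The brush border carrier of most neutral amino acids is B0AT1, encoded by *Slc6a19* (chr13:73679745-73704865, minus strand). It measured 430.1 to 799 CPM in Control mice (median 555), 444 to 846 in heterozygous (median 601) and 497 to 862 in homozygous mice (median 657). High and low mice occurred in each group and the ranges overlapped over nearly their whole length. The log2 fold changes were 0.15 in homozygous (SE 0.21, interval -0.29 to 0.58) and 0.09 in heterozygous mice against Control (SE 0.21, interval -0.35 to 0.53), with adjusted p of 0.910 and 1.00 by edgeR.

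**Figure D2:**
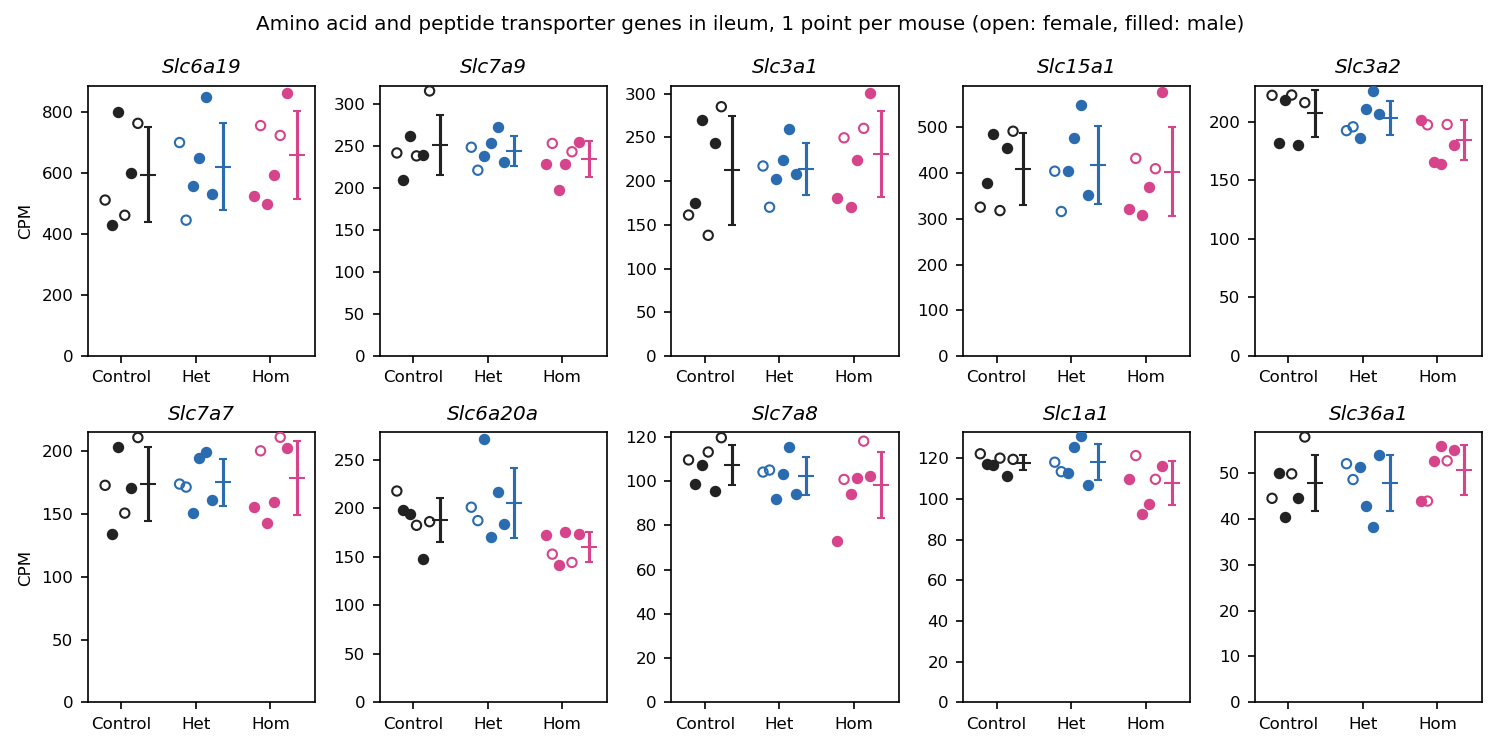
CPM of the 10 transporter genes per mouse, by genotype (Control, heterozygous and homozygous IEC-*Ppara*), with females as open and males as filled points and the mean ± SD of each group (n = 6) beside them; every axis starts at 0. The groups overlap for every gene, and *Slc6a20a* in homozygous mice (141 to 175 CPM) lies low, with 3 mice below every heterozygous and 2 below every Control mouse.

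Cystine and dibasic amino acids enter through the exchanger made of the light chain encoded by *Slc7a9* (chr7:35448796-35466036, plus strand) and the heavy chain rBAT encoded by *Slc3a1* (chr17:85028376-85064236, plus strand). *Slc7a9* measured 209.8 to 316 CPM in Control (median 241), 221 to 273 in heterozygous (median 244) and 198 to 255 in homozygous mice (median 236). *Slc3a1* varied more, with 138 to 285 CPM in Control (median 209.5), 170.2 to 260 in heterozygous (median 213) and 171 to 301 in homozygous mice (median 237). The ranges of both genes overlapped between genotypes, and 3 Control mice at 138 to 175 CPM and 3 at 244 to 285 CPM gave *Slc3a1* a coefficient of variation of 29.2%, the highest of the 10 genes in any group. For homozygous against Control mice the log2 fold changes were -0.10 (SE 0.11, interval -0.34 to 0.13) for *Slc7a9* and 0.12 (SE 0.20, interval -0.30 to 0.53) for *Slc3a1*, with adjusted p of 0.866 and 0.936 by edgeR. For heterozygous against Control mice they were -0.01 and 0.04, with adjusted p of 1.00 for both by edgeR. The exons of *Slc3a1* overlap those of *Prepl* on the opposite strand by 26.5% of their length, and the library protocol names no step that keeps the strand, so reads there may not be assignable to either gene. *Prepl* itself stood at 39.5 to 69.6 CPM.

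Di- and tripeptides are taken up by the proton-coupled carrier PEPT1, encoded by *Slc15a1* (chr14:121459621-121505252, minus strand). It measured 318 to 492 CPM in Control (median 416), 316 to 549.9 in heterozygous (median 405) and 309 to 577 in homozygous mice (median 389), and the 3 ranges overlapped. Its log2 fold changes against Control were -0.02 (SE 0.18, interval -0.41 to 0.37) in homozygous and 0.06 (SE 0.18, interval -0.32 to 0.45) in heterozygous mice, with adjusted p of 0.990 and 1.00 by edgeR.

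Glutamate and aspartate are carried by EAAT3, encoded by *Slc1a1* (chr19:28835049-28913960, plus strand). It had the narrowest spread in Control mice, 111 to 122 CPM (median 118), against 107 to 131 in heterozygous (median 116) and 92.9 to 121 in homozygous mice (median 109.9). Of the homozygous mice, 4 lay below every Control mouse. The log2 fold changes were -0.12 (SE 0.08, interval -0.30 to 0.06) in homozygous and 0.04 (SE 0.08, interval -0.14 to 0.21) in heterozygous against Control mice, and -0.16 (interval -0.33 to 0.02) between the IEC-*Ppara* groups, with adjusted p of 0.747, 1.00 and 0.642 by edgeR. A gene on the opposite strand, at a mean of 1.07 CPM, covers 31.9% of the exons of *Slc1a1*. How reads there were assigned was not tested.

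*Slc36a1* (chr11:55204350-55236330, plus strand) encodes PAT1, the proton-coupled carrier of small amino acids such as glycine and proline. It measured 40.5 to 57.8 CPM in Control (median 47.2), 38.1 to 53.9 in heterozygous (median 49.9) and 43.8 to 55.7 in homozygous mice (median 52.6). The groups overlapped, and its log2 fold changes against Control were 0.08 (SE 0.10, interval -0.12 to 0.28) and 0.03 (SE 0.10, interval -0.18 to 0.23), with adjusted p of 0.881 and 1.00 by edgeR.

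At the basolateral membrane, the light chains of y+LAT1 (*Slc7a7*, chr14:54369442-54417780, minus strand), which exports dibasic amino acids, and of LAT2 (*Slc7a8*, chr14:54722209-54781946, minus strand), which exchanges neutral amino acids, share the heavy chain encoded by *Slc3a2* (chr19:8706882-8723369, minus strand). *Slc7a7* measured 134 to 211 CPM in Control (median 172), 151 to 199 in heterozygous (median 172) and 142 to 211 in homozygous mice (median 179.8). *Slc7a8* measured 95.4 to 120 CPM, 92.1 to 115 and 72.7 to 118 in the same order (medians 108, 104 and 101). *Slc3a2* measured 180 to 223 CPM in Control (median 217), 186 to 226 in heterozygous (median 201) and 164 to 201 in homozygous mice (median 189). *Slc3a2* was below the Control median in 6 of 6 homozygous mice and below every Control mouse in 2, and all 3 genes overlapped between the groups. For homozygous against Control mice the log2 fold changes were 0.04 (SE 0.14, interval -0.26 to 0.34) for *Slc7a7*, -0.13 (SE 0.11, interval -0.35 to 0.10) for *Slc7a8* and -0.16 (SE 0.09, interval -0.36 to 0.03) for *Slc3a2*. Their adjusted p by edgeR were 0.973, 0.802 and 0.685. For heterozygous against Control mice the values were 0.04, -0.04 and 0.00, each with an adjusted p of 1.00 by edgeR. The exons of *Slc7a7* overlap those of *Oxa1l* on the opposite strand over 7.0% of their length, and *Oxa1l* was at 53.6 to 71.1 CPM.

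Across the 10 genes, 4 had higher and 6 had lower values in homozygous mice than in Control, with a median log2 fold change of -0.06 beside -0.00 over all tested genes. In heterozygous mice 8 were higher and 2 lower, with a median of 0.04, and between homozygous and heterozygous mice 4 were higher and 6 lower, with a median of -0.09. Marker lists moved with the heterozygous values: epithelial markers were higher than in Control for 12 of 12 and enterocyte markers for 12 of 15, and markers were lower for 10 of 10 of smooth muscle, 12 of 12 of B cells, 7 of 7 of T cells, 10 of 12 of myeloid cells and 9 of 10 of crypts. Other lists were mixed: fibroblast markers were higher for 4 and lower for 6, ileal genes higher for 6 and lower for 4, and duodenal genes higher for 4 and lower for 2. None of the markers in these lists passed an adjusted p of 0.05 by edgeR. An unadjusted p of 0.05 by edgeR was reached by 3 enterocyte, 4 T cell, 2 crypt and 1 fibroblast markers. Their part in these values was not tested beyond the smooth muscle and B cell covariates. By edgeR, 0 of 10 passed an adjusted p of 0.05 for homozygous against Control, where 0.403% of all tested genes passed, 0 of 10 for heterozygous against Control, where 0.293% passed, and 0 of 10 between the IEC-*Ppara* groups, where 0.0% passed. At an unadjusted p under 0.05 by edgeR the counts were 0, 0 and 1 (*Slc6a20a*) of 10, against 8.02%, 5.22% and 7.63% of all tested genes. DESeq2 and limma-voom also called 0 of 10 in each comparison, and the lowest adjusted p of any of the 10 genes under any setting was 0.175. The comparisons with Control share the Control libraries, so their values are not independent of each other.

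**Figure D3:**
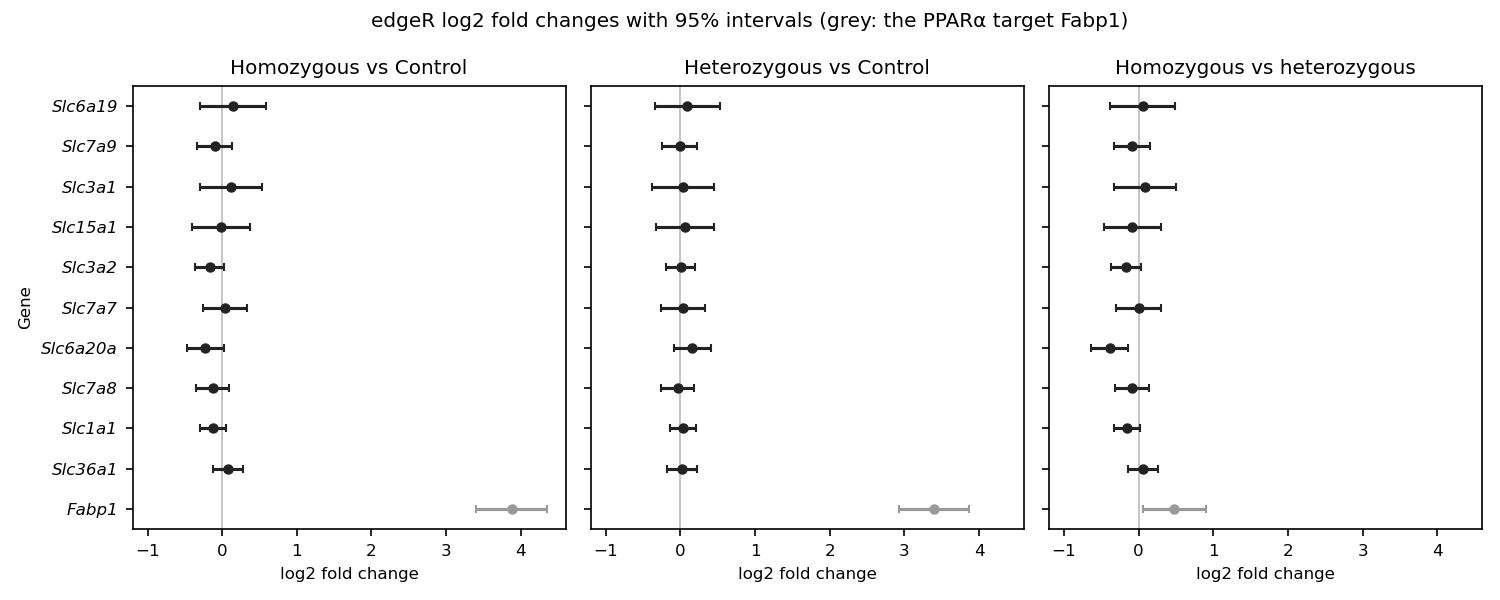
Log2 fold changes from edgeR with 95% intervals for the 10 transporter genes (black) and for the PPARα target *Fabp1* (grey) in the 3 comparisons. The intervals of the transporters include 0 except for *Slc6a20a* in homozygous against heterozygous mice (-0.64 to -0.14), whereas *Fabp1* stood at 3.88 and 3.40 against Control.

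The balance of light and heavy chains was compared as the log2 ratio of their counts, with a two-sided exact permutation test over the 924 arrangements of 6 against 6 mice (smallest possible p 0.00216) and adjustment over 9 tests. The *Slc7a9* to *Slc3a1* ratio was 0.29 ± 0.34 in Control, 0.20 ± 0.10 in heterozygous and 0.04 ± 0.21 in homozygous mice (SD, n = 6). The *Slc7a7* to *Slc3a2* ratio was -0.26 ± 0.22, -0.22 ± 0.10 and -0.06 ± 0.20, and the *Slc7a8* to *Slc3a2* ratio -0.95 ± 0.07, -0.99 ± 0.09 and -0.92 ± 0.28. Homozygous mice thus had less *Slc7a9* and more *Slc7a7* per heavy chain on average, but none of the 9 differences passed the test, with the smallest at an exact p of 0.108 and an adjusted p of 0.383. Homozygous mouse 1, with a *Slc7a8* to *Slc3a2* ratio of -1.47, stood apart from the other 5 of its group, whose lowest value was -0.97.

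**Figure D4:**
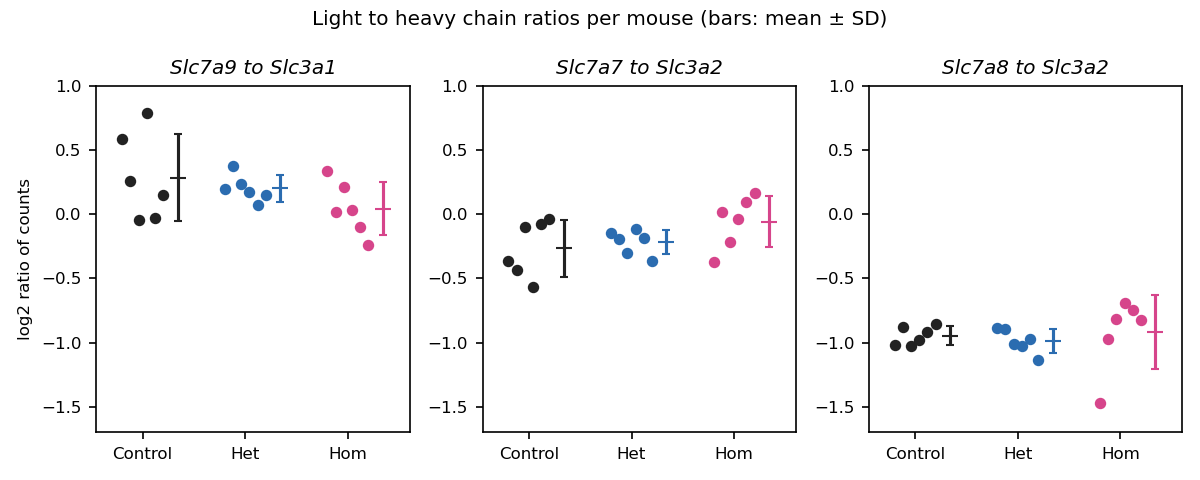
Log2 ratio of light to heavy chain counts per mouse for the 3 heteromers, by genotype, with the mean ± SD beside the points. The groups overlap in each panel, and 1 homozygous mouse lies at -1.47 in the *Slc7a8* to *Slc3a2* panel.

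Over all 18 mice, the chains of the cystine exchanger varied together, but not as a pair apart: *Slc3a1* had a higher r with *Slc6a19* (0.91) and *Slc7a9* with *Slc7a7* (0.80) than the partner chains had with each other. *Slc7a9* and *Slc3a1* had a Pearson r of 0.670 (permutation p 0.00191, adjusted over 5 relations 0.00318) and a Spearman rho of 0.767 (permutation p 0.00033), and r was 0.669, 0.956 and 0.876 within Control, heterozygous and homozygous mice. Without the 2 mice farthest from the median of *Slc7a9*, r was 0.630. For *Slc7a7* and *Slc3a2* (r = 0.437, permutation p 0.0704, rho = 0.354, permutation p 0.152) the relation did not pass the test, and r was 0.475, 0.799 and 0.549 within Control, heterozygous and homozygous mice and 0.423 without the 2 farthest mice. For *Slc7a8* and *Slc3a2*, r was 0.401 (permutation p 0.0974) and rho 0.602 (permutation p 0.0102). It was 0.867 and 0.656 within Control and heterozygous mice, -0.161 within homozygous mice and 0.619 without the 2 farthest mice. *Slc6a20a* and *Slc6a20b*, a pair chosen after its values were seen, had r = 0.790 (permutation p 0.00011, adjusted 0.00055), rho = 0.827 (permutation p 4e-05) and 0.481 to 0.748 within the genotypes, with r = 0.644 without the 2 farthest mice. The values of a library share its depth and its mix of tissue layers, whose part in these relations was not tested.

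As a description, the 45 pairs of the 10 genes had r from -0.53 to 0.91 over the 18 libraries (median 0.36), with 12 pairs below 0. *Slc6a19*, *Slc3a1*, *Slc15a1*, *Slc7a7* and *Slc7a9* formed a block with r of 0.67 to 0.91 among themselves. *Slc3a2* and *Slc1a1* had r = 0.76 with each other. *Slc6a20a* had no r above 0.41 and *Slc36a1* none above 0.07 with another of the 10 genes, and the lowest value was that of *Slc36a1* with *Slc1a1*. Among all tested genes, the one with the most similar pattern was *Ezr* (ezrin of the brush border, r = 0.94) for *Slc6a19*, *Anpep* (aminopeptidase N, r = 0.91) for *Slc3a1*, *Vil1* (villin, r = 0.94) for *Slc7a9*, *Slc5a1* (the sodium-glucose carrier, r = 0.90) for *Slc7a7* and *Tns4* (r = 0.91) for *Slc15a1*. It was *Slc51a* (a bile acid exporter subunit, r = 0.90) for *Slc3a2*, *Usp37* (r = 0.90) for *Slc1a1*, *Slc6a6* (the taurine carrier, r = 0.78) for *Slc7a8*, *Tmem144* (r = 0.87) for *Slc6a20a* and *Zcchc14* (r = 0.88) for *Slc36a1*.

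**Figure D5:**
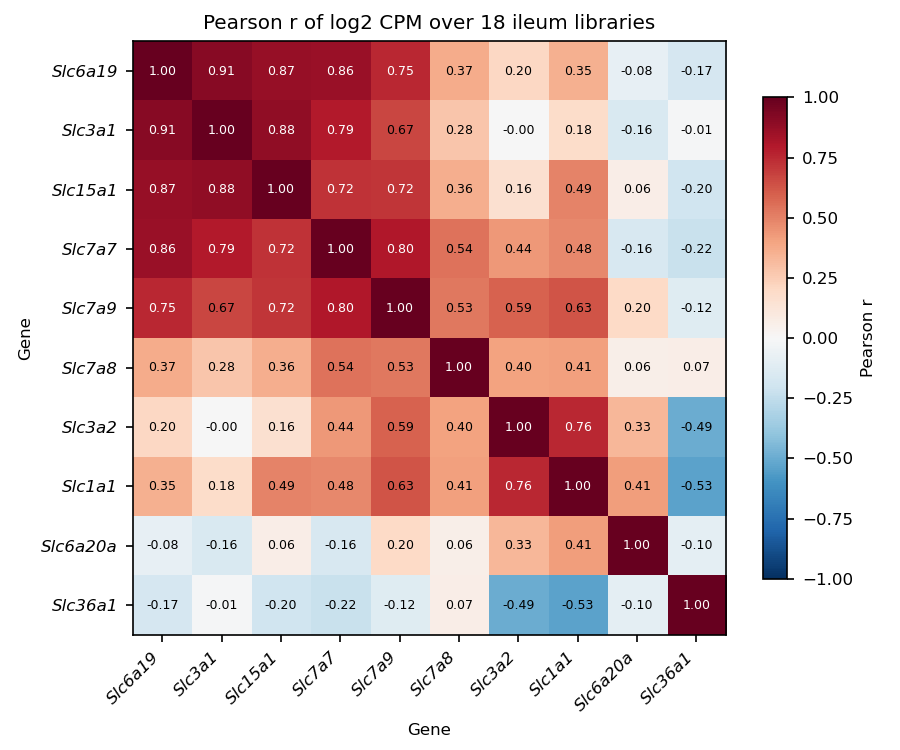
Pearson r of log2 CPM between the 10 transporter genes over the 18 ileum libraries, from -1 (blue) to 1 (red). *Slc6a19*, *Slc3a1*, *Slc15a1*, *Slc7a7* and *Slc7a9* form a block with r of 0.67 to 0.91, and *Slc36a1* has no r above 0.07.

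Upstream sequences are shown for the member with the largest difference between genotypes in the fit without covariates. They are also shown for the heavy chain of the block that varied together. They are the bases before the RefSeq start (GRCm38.p6) that lie outside the gene as the count files place it, 5′ to 3′, for *Slc6a20a* at chr9:123678886-123679082 (minus strand) and *Slc3a1* at chr17:85028097-85028346 (plus strand), with capitals marking a match to a searched motif.
Slc6a20a: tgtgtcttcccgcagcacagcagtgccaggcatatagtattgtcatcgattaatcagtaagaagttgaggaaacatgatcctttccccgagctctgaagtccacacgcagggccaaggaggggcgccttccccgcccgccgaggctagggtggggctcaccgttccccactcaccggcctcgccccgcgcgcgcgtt
Slc3a1: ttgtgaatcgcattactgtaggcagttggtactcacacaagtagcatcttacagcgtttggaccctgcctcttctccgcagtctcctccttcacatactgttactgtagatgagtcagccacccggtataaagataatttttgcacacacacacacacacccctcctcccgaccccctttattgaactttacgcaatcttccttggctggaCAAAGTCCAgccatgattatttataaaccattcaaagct
All 10 genes matched the promoter table, with 15 promoters in all, and the 250 bases before each start were searched on both strands. The direct repeat bound by PPARα with RXR, AGGTCANAGGTCA, matched 0 of these 15 promoters and 0.0335% of 32851 promoters. The single site AGGTCA, which the repeat contains, matched 4 of the 15, in 3 genes (*Slc36a1*, *Slc7a7* and *Slc7a9*), and 14.0% of all promoters. The HNF4 site CAAAGTCCA matched 1 of the 15, that of *Slc3a1*, and 0.384% of all promoters. The HNF1 core GTTAAT matched 3 of the 15 (*Slc36a1*, *Slc6a20a* and *Slc7a7*) and 6.43% of all promoters, and in *Slc6a20a* the match lies across the gene start, so that the printed stretch ends in its first bases, which are left in lower case.

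The other genes of the pathway gave 0 calls at an adjusted p of 0.05 by edgeR in each of the 3 comparisons, and DESeq2 called none of them either. Of 42 other amino acid and peptide carriers in the files, 31 were tested. In homozygous against Control mice 16 were higher and 15 lower (median log2 fold change 0.01), with 2 at an unadjusted p under 0.05 by edgeR, *Slc6a20b* and *Slc6a14*. Of all tested genes 8.02% reached this level in that comparison. *Slc6a14*, a broad sodium- and chloride-coupled carrier, measured 0.48 to 44.7 CPM in Control (median 7.50), 1.49 to 17.4 in heterozygous (median 3.91) and 11.8 to 75.1 in homozygous mice (median 53.3). All but 1 homozygous mouse lay above 39 CPM, and 1 Control mouse reached 44.7 CPM. Its log2 fold change was 2.09 (SE 0.78, interval 0.47 to 3.72, adjusted p = 0.472 by edgeR) in homozygous against Control and 3.10 (SE 0.81, interval 1.40 to 4.81, adjusted p = 0.479 by edgeR) against heterozygous mice. Without Control mouse 5 the first of these was 3.26 (adjusted p = 0.0637 by edgeR). In heterozygous against Control mice 14 carriers were higher and 17 lower, with 2 at an unadjusted p under 0.05 by edgeR: *Slc7a6*, a relative of *Slc7a7* (log2 fold change -0.21, SE 0.08, adjusted p = 0.733), and *Slc7a11*, the cystine-glutamate exchanger (-0.88, SE 0.41, adjusted p = 0.949). Of all tested genes 5.22% reached an unadjusted p under 0.05 by edgeR in this comparison. *Slc7a11* measured 1.04 to 6.59 CPM in Control, 0.92 to 2.93 in heterozygous and 1.48 to 4.71 in homozygous mice. No heterozygous mouse exceeded the 3 CPM of the filter, so *Slc7a11* was kept through the other groups. Its lower heterozygous value therefore gives no support by itself. Without the 4 libraries of highest B cell score the *Slc7a11* value was -0.33. *Slc6a18*, the renal relative of *Slc6a19*, stood at 0.69 to 3.66 CPM.

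Of 18 tested peptidases of the brush border and cytosol, 3 had higher and 15 had lower values in homozygous mice than in Control (median log2 fold change -0.09). An unadjusted p under 0.05 by edgeR was reached by 2 of them, against 8.02% of all tested genes. These were *Xpnpep2* and the endopeptidase neprilysin *Mme* (-0.46, SE 0.21, adjusted p = 0.605 by edgeR). *Xpnpep2*, an aminopeptidase that cleaves before proline, measured 516 to 739.5 CPM in Control (median 593), 513 to 647 in heterozygous (median 536) and 382 to 553 in homozygous mice (median 492). All 6 homozygous mice lay below the Control median and 3 below every Control mouse, and its log2 fold change was -0.31 (SE 0.13, interval -0.58 to -0.04, adjusted p = 0.561 by edgeR). With the smooth muscle score as a covariate the *Xpnpep2* value was -0.18 (unadjusted p 0.135, adjusted p 0.915 by edgeR). In heterozygous mice 10 peptidases were higher and 8 lower, with 0 at an unadjusted p under 0.05. Of 12 tested partners, ion exchangers and scaffolds of these carriers, 5 were higher and 7 lower in homozygous mice and 11 higher and 1 lower in heterozygous mice, with 0 at an unadjusted p under 0.05 in either by edgeR. Of 21 tested genes of the ATF4 response, which cells use when amino acids are short, 11 were higher and 10 lower in homozygous mice (median 0.00), with *Atf3* (0.46) and *Aldh18a1* (-0.21) at an unadjusted p under 0.05 by edgeR. In heterozygous mice 12 were higher and 9 lower, and *Shmt2*, the mitochondrial serine hydroxymethyltransferase, had the lowest p (log2 fold change -0.29, SE 0.09, interval -0.47 to -0.11, unadjusted p 0.00389, adjusted p 0.378 by edgeR), at 36.5 to 44.6 CPM in Control and 24.8 to 42.5 CPM in heterozygous mice. Between homozygous and heterozygous mice, 7.63% of all tested genes reached an unadjusted p under 0.05 by edgeR. So did 2 of 31 other carriers (*Slc6a14* and *Slc6a20b*) and 3 of 18 peptidases (*Mme* at -0.64, *Mep1a* at -0.19 and *Naaladl1* at -0.19). The same held for 2 of 12 partners (the scaffold *Pdzk1* at -0.31 and the potassium channel *Kcnq1* at -0.19). It held for 3 of 21 genes of the ATF4 list (*Cebpb* at 0.62, *Ddit3* at -0.30 and *Aldh18a1* at -0.25). All of these list genes had an adjusted p of at least 0.479 by edgeR. These genes other than *Slc6a14* and *Slc6a20b*, and *Atf3*, were named after their values were seen.

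Beside these values, the marker lists of other cells in homozygous against Control mice gave 0 calls at an adjusted p of 0.05 by edgeR, and DESeq2 called *Olfm4*, *Cd4* and *Cd3e*, all lower in homozygous mice. At an unadjusted p under 0.05, edgeR counted 2 enterocyte, 0 epithelial, 3 ileal, 0 duodenal, 3 crypt, 12 B cell, 6 T cell, 1 myeloid, 0 smooth muscle and 2 fibroblast markers. The share of all tested genes at this level was 8.02%. Enterocyte markers were higher for 8 of 15 and epithelial markers for 3 of 12. Ileal genes were higher for 3 of 10 tested, duodenal for 3 of 6 and stem and crypt genes for 1 of 10. B cell markers were lower for 12 of 12 (median log2 fold change -2.79), which rested on few mice. Their mean log2 CPM was 5.51 and 5.20 in Control mice 2 and 3, against 0.30 to 0.51 in the other Control mice. The median of their summed CPM was 25.1 in Control and 18.2 in homozygous mice. T cell markers were lower for 7 of 7 and myeloid markers higher for 9 of 12. Smooth muscle and fibroblast markers were higher for 10 of 10 each (medians 0.57 and 0.35). Their part in the values of the 10 transporter genes was not tested beyond the smooth muscle and B cell covariates, under which 0 of 10 passed in any comparison.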

How the data were processed

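Whole-thickness ileum of 18 mice (6 Control, 6 heterozygous and 6 homozygous IEC-*Ppara*, grouped by the labelled genotype) was sequenced with poly-A selection and paired reads. The authors aligned reads to GRCm38 with STAR and deposited counts of uniquely aligned, unambiguous reads per gene from featureCounts, without normalization. The CPM deposited by the authors are these counts scaled to the library total, and the deposited FPKM divide them also by gene length; FPKM were used only to compare levels between genes. The log2 CPM deposited by the authors, moderated by a prior, were not used. The members and gene lists were chosen with earlier results of these data known.

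Genes above 3 CPM in 4 or more libraries (13709, of which 12645 protein-coding) were tested with edgeR 4.0.16 (quasi-likelihood, TMM, 18 libraries in 1 fit, no covariates, R 4.3.3) with Benjamini-Hochberg adjustment per comparison. The study's methods give a smaller number of genes for the same filter, and the reason for the difference is not known. Ratios of chains used counts with 0.5 added, and correlations used log2 CPM (prior count 2) and 100000 permutations. The fit was tested on simulated data. The genes named were the 10 members, calls in the other lists, the 3 lowest p-values per IEC-*Ppara* against Control comparison among carriers, peptidases, partners and ATF4 genes, the genes nearest in pattern, and label checks; *Slc10a2*, *Gata4*, *Epcam*, *Prepl* and *Slc6a18* were named for context after their values were seen. Lists cover PPARα targets, other carriers, peptidases, partners, the ATF4 response, epithelium, enterocytes, ileum, duodenum, crypt, B and T cells, myeloid cells, smooth muscle and fibroblasts. Alternatives were DESeq2 1.42.0, limma-voom (limma 3.58.1), other size factors, no filter, all biotypes, only the compared libraries, sex, replicate block, marker covariates and leaving libraries out. Depth was 38528522 to 50376371 counts per library, where 3 CPM is at least 115.6 counts. Some genes are not reported here.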

Additional observations from a re-analysis of the deposited data

Results flagged for a closer look

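In groups of 6 mice, 57 were tested for a single library far from the rest, and 4 were picked out, where chance picks about 1 in 20. Homozygous mouse 1 had a *Slc7a8* to *Slc3a2* log2 count ratio of -1.47, and the nearest of its group stood at -0.97. Homozygous mouse 4 had 13.6 CPM of *Slc6a20b*, the nearest 10.2. Control mouse 5 had 44.7 CPM of *Slc6a14*, the nearest 8.54, and heterozygous mouse 4 had 17.4 CPM, the nearest 5.26.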

How the results depend on the processing

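None of the 10 transporter genes passed an adjusted p of 0.05 in any of 12 other settings or with any 1 of 18 libraries left out. Of 360 log2 fold changes in the other settings 17 changed sign, as did 47 of 540 with a library left out and 3 values of *Slc7a6* and *Slc7a11*, and the cause was not tested. In homozygous against Control these were *Slc7a7* (-0.018 with a B cell covariate), *Slc7a9* (0.022 with a smooth muscle covariate), *Slc15a1* (0.10 with a smooth muscle covariate, 0.077 without the 4 libraries highest in B cell markers), *Slc7a6* (0.0034 without the 4 libraries highest in B cell markers) and *Slc7a11* (0.19 with a B cell covariate, 0.38 without the 4 libraries highest in B cell markers). In heterozygous against Control these were *Slc7a9* (0.0076 with sex), *Slc3a1* (-0.023 with a B cell covariate), *Slc3a2* (-0.027 with library size, -0.015 with a B cell covariate) and *Slc36a1* (-0.0018 with library size, -0.014 without the 4 libraries highest in B cell markers). In homozygous against heterozygous these were *Slc7a7* (-0.0099 by limma-voom, -0.0056 without a filter, -0.0081 with sex, -0.0083 with a replicate block, -0.019 with a B cell covariate), *Slc7a9* (0.036 with a smooth muscle covariate) and *Slc15a1* (0.045 with a smooth muscle covariate). With 1 library left out, values that changed sign ranged as follows: in homozygous against Control -0.036 to 0.12 for *Slc7a7*, -0.16 to 0.00035 for *Slc7a9*, -0.16 to 0.064 for *Slc15a1* and -0.017 to 0.14 for *Slc7a8* to *Slc3a2* ratio. The ranges in heterozygous against Control were -0.043 to 0.21 for *Slc6a19*, -0.037 to 0.13 for *Slc7a7*, -0.095 to 0.025 for *Slc7a8*, -0.069 to 0.094 for *Slc7a9*, -0.073 to 0.17 for *Slc3a1*, -0.050 to 0.043 for *Slc3a2*, -0.055 to 0.15 for *Slc15a1*, -0.015 to 0.068 for *Slc1a1*, -0.010 to 0.12 for *Slc36a1*, -1.75 to 0.16 for *Slc6a14*, -0.12 to 0.049 for *Xpnpep2*, -0.15 to 0.016 for *Slc7a9* to *Slc3a1* ratio and -0.014 to 0.092 for *Slc7a7* to *Slc3a2* ratio. The ranges in homozygous against heterozygous were -0.047 to 0.18 for *Slc6a19*, -0.053 to 0.068 for *Slc7a7*, -0.017 to 0.17 for *Slc3a1* and -0.22 to 0.029 for *Slc15a1*. Values that kept their sign with 1 library left out but moved by over 1.5 times, none of them past the test, included *Slc6a19* (0.043 to 0.26), *Slc3a1* (0.0098 without Control mouse 4 to 0.25 without Control mouse 6), *Slc7a8* (-0.19 to -0.058), *Slc1a1* (-0.17 to -0.070), *Slc36a1* (0.045 without Control mouse 3 to 0.17 without Control mouse 6) and the *Slc7a9* to *Slc3a1* ratio (-0.31 to -0.14) in homozygous against Control, and *Slc6a20a* in heterozygous against Control (0.068 to 0.21). In homozygous against Control the smooth muscle covariate moved *Slc6a19* to 0.30, *Slc3a1* to 0.28, *Slc7a7* to 0.15, *Slc36a1* to 0.16, *Slc7a8* to -0.066, *Slc1a1* to -0.073 and *Slc6a20a* to -0.10. The B cell covariate moved *Slc6a19* to 0.042, *Slc3a1* to 0.038, *Slc36a1* to 0.043, *Slc15a1* to -0.10 and *Slc7a9* to -0.16, and without the 4 libraries highest in B cell markers *Slc6a19* was 0.23, *Slc3a1* 0.21 and *Slc7a8* -0.083. Values in the other comparisons, most of them nearer to 0, moved as well, such as *Slc6a19* (0.20), *Slc3a1* (0.24) and *Slc36a1* (0.14) in homozygous against heterozygous with the smooth muscle covariate. The PPARα target count was 21 and 20 by DESeq2 against Control, and 7 in homozygous mice without the 4 libraries highest in B cell markers.

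The labels do not say that the replicate numbers pair the mice. Same-numbered libraries deviated from their group means with correlations of -0.61 to 0.64. This range cannot decide whether they are paired, because differently numbered libraries were not compared. With the replicate block 0 of 10 genes passed in each comparison, and *Slc6a20a* in homozygous against heterozygous mice was -0.38 (adjusted p = 0.750 by edgeR). Covariates for smooth muscle and B cells and the pair *Slc6a20a* and *Slc6a20b* were chosen with earlier results known. Groups of 6 limit what could be seen: the widest interval of a transporter, *Slc6a19* in homozygous against Control mice, ran from -0.29 to 0.58. The overlap of *Slc3a1*, *Slc1a1*, *Slc6a20a* and *Slc7a7* with genes on the opposite strand was not resolved here, and proteins and transport were not measured.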
